A study of Mus musculus with 10 samples.

Results

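The genes that build cholesterol and fatty acids were examined in mouse embryonic stem cells (mESCs) that lacked a scaffold subunit of the mitotic deacetylase complex (MiDAC), a complex that removes acetyl groups from histones. Members were chosen by function, as 31 symbols for the enzymes of the mevalonate, sterol and fatty acid pathways and for the proteins that control them. The table of expression values holds 30 of these symbols among its 34591 genes. The symbol without a value, Msmo1, is the current name of a gene that the table lists as *Sc4mol*, so 30 genes were followed and no listed gene was lost. RNA-seq compared wild-type (WT) cells with *Dnttip1* KO and *Elmsan1* KO cells. All 5 lines derive from male C57/BL6 Bruce-4 mESCs, and all were kept without feeder cells in defined naïve medium with 2 inhibitors and LIF (2iL). Clones D2A7 and D1E6 carry CRISPR/Cas9 indels in *Dnttip1*, clones E2E8 and E2G7 carry them in *Elmsan1*, and each clone was grown from a single sorted cell. Every line gave 2 libraries, 10 in all, and both knockouts were compared with the same 2 WT libraries. The labels and the design text of the series number the *Dnttip1* KO clones in opposite ways, so only the clone codes are used.

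Cholesterol is built from acetyl-CoA by the mevalonate pathway, which ends in farnesyl diphosphate, by the closure of squalene to lanosterol and by a series of steps that turn lanosterol into cholesterol. The sterol regulatory element-binding proteins (SREBPs) drive transcription of nearly all of these enzymes. When sterols are scarce, SCAP escorts SREBPs from the endoplasmic reticulum to the Golgi, where proteases release their active part, and when sterols are plentiful INSIG proteins hold SCAP back. Fatty acids are built from the same acetyl-CoA by ATP citrate lyase, acetyl-CoA carboxylase and fatty acid synthase, then elongated and desaturated, mostly under SREBP-1. RNA levels do not measure the flux through these pathways, and in bulk RNA fewer cells of a type and less RNA per cell cannot be told apart.

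Values are FPKM, fragments per kilobase of exon and per unit of sequencing depth, scaled so that the median gene was level between libraries. Library totals recovered from the FPKM steps were lowest in WT, at 31098266 and 37921213 fragments, against 48262663 to 86463818 in the KO libraries. Even so, the scarcest count of the 29 members with a known exon length was 447 fragments, for *Insig2*. Summed FPKM of 8 mESC markers was 2796 to 2841 in WT, 2819 to 3491 in *Dnttip1* KO and 2687 to 3009 in *Elmsan1* KO, and all 8 were expressed in all libraries. *Dppa5a* made up most of that sum. Of the 8, *Sox2* fell in both knockouts at an adjusted p under 0.05 (log2 -0.38 and -0.46, adjusted p = 0.0157 and 0.00725). *Zfp42*, which lies on chromosome 8, rose in both (0.50 and 0.36, adjusted p = 0.0386 and 0.0263). *Nanog* (-0.35, adjusted p = 0.0241) and *Klf4* (-0.38, adjusted p = 0.0428) fell in *Elmsan1* KO, and the part of these shifts in the results below was not tested. Markers of fibroblasts (6 genes) summed to at most 0.144 FPKM, of primitive endoderm (5) to at most 1.36 and of neural cells (4 of 5 in the table) to at most 0.909. *Dnttip1* RNA was 8.35 to 8.45 in WT, 2.58 to 4.57 in *Dnttip1* KO and 6.43 to 7.77 in *Elmsan1* KO. *Elmsan1* RNA was 5.34 to 5.73 in WT, 7.78 to 8.67 in *Dnttip1* KO and 4.62 to 5.13 in *Elmsan1* KO, where indels need not remove the transcript. The expressed genes of chromosome 8 had a median log2 level 0.35 to 0.38 above WT in each of the 8 KO libraries, which touches 2 members, *Mvd* and *Sc4mol*, and the marker *Zfp42*. Those of chromosome 6 were 0.29 to 0.43 above WT in D1E6, E2E8 and E2G7, but at -0.08 in both libraries of D2A7. Chromosome 6 holds *Nanog* and no member of known position.

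All 30 members were expressed in all 10 libraries. Because FPKM are per length, levels can be compared between genes. Averaged over the 5 lines they spanned from 3.00 FPKM for *Hsd17b7* to 204 FPKM for *Scd2*, which encodes a stearoyl-CoA desaturase that introduces the double bond of oleate. *Scd2* was the only member whose range over libraries, 190.3 to 219 FPKM, was clear of the next in order. *Fdps*, the synthase of farnesyl diphosphate, followed at 127 FPKM (range 116 to 138). Next came *Acly* (ATP citrate lyase, 118), *Hmgcs1* (HMG-CoA synthase, 95.8), *Insig1* (87.0) and *Fasn* (fatty acid synthase, 78.0), whose ranges overlapped from each to the next, as did those of all later neighbours. At the low end stood *Scap* (6.15 FPKM), *Stard4* (4.50), *Insig2* (3.74) and *Hsd17b7*. *Insig1* RNA was thus far above *Insig2* RNA in all libraries, with 74.5 to 94.6 against 3.25 to 4.49 FPKM. Exons of *Fdft1*, *Lss*, *Srebf1*, *Scap* and *Acaca* overlap a gene on the other strand, and those of *Tm7sf2* and *Scd2* a gene on the same strand, so reads may be shared there.

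**Figure D1:**
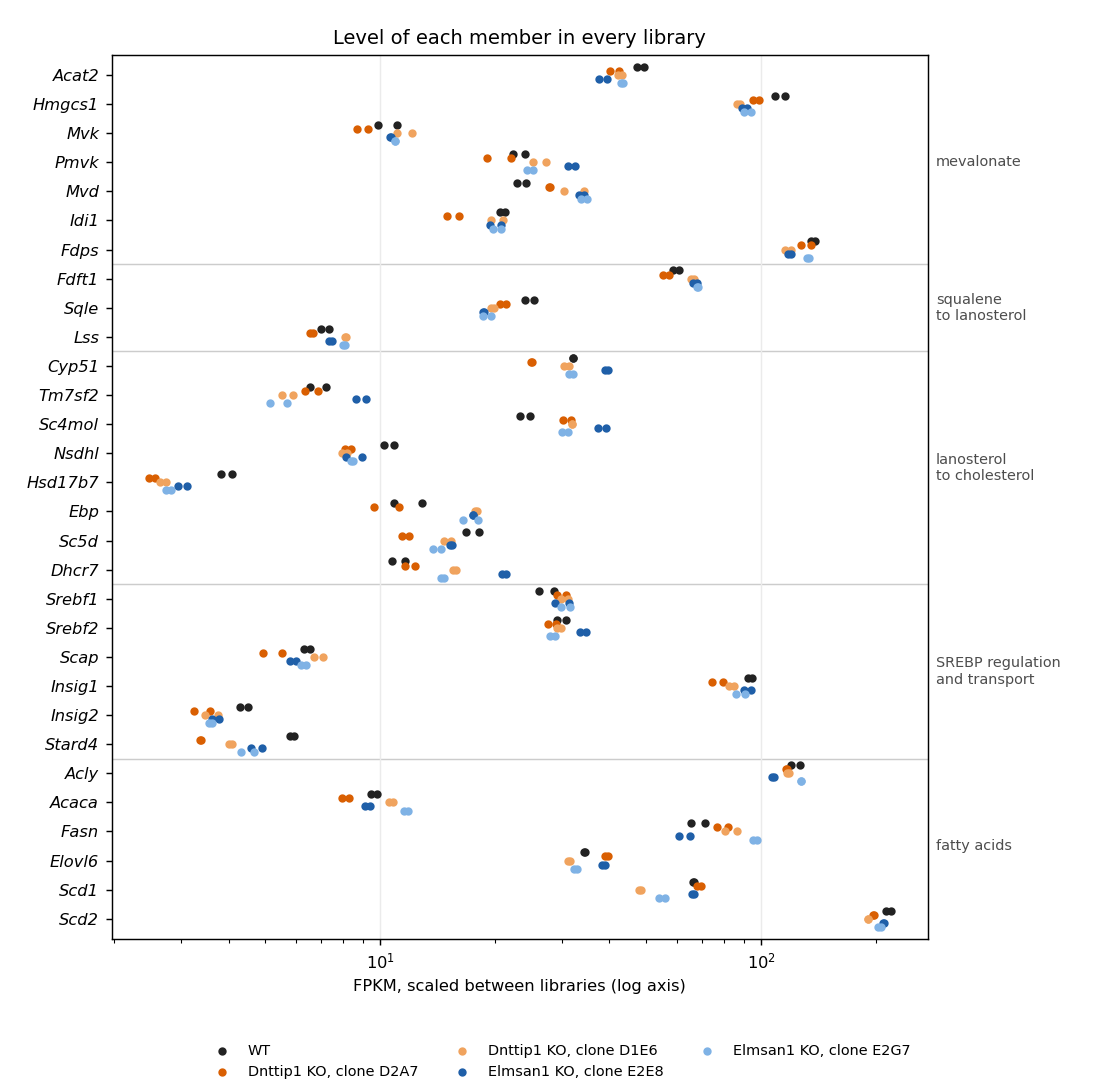
Level of each of the 30 members in every library, in scaled FPKM on a log axis, grouped by pathway step, with 2 points for each of the 5 lines. *Scd2* stands highest, at 190.3 to 219 FPKM, and *Hsd17b7* lowest, at 2.47 to 4.09 FPKM, and lines differ far less than genes do.

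Levels moved little between libraries. The ratio of the highest to the lowest library ran from 1.15 for *Scd2* to 2.00 for *Dhcr7*. Summed over all members, expression was 1251 and 1288 FPKM in WT, 1187 to 1211 in *Dnttip1* KO and 1253 to 1276 in *Elmsan1* KO. The 6 fatty acid genes made the largest share, 478 to 530.3 FPKM, and the 7 mevalonate genes came next, at 333 to 378. The 8 genes from lanosterol to cholesterol, by contrast, summed to only 106 to 153 FPKM, with both ends of that range in KO clones, D2A7 at the low end and E2E8 at the high end.

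Promoter windows of RefSeq, 250 bases before and 50 from the start site on GRCm38.p6, were matched for 24 of the 30 members, leaving *Fdps*, *Fdft1*, *Sqle*, *Stard4*, *Scd1* and *Scd2* unsearched. They are shown for 4 members because these are the letters through which SREBPs are known to act: *Hmgcs1*, a classical SREBP target, *Hsd17b7*, which was called in a knockout, and *Ebp* and *Fasn*, which were called between clones. Capitals mark matches, on either strand, to TCACNNCAC, TCACGTG or CCAAT, the last of which is read by NF-Y, a partner of SREBPs.
*Hmgcs1*, GRCm38.p6 chr13:119690101-119690400, + strand: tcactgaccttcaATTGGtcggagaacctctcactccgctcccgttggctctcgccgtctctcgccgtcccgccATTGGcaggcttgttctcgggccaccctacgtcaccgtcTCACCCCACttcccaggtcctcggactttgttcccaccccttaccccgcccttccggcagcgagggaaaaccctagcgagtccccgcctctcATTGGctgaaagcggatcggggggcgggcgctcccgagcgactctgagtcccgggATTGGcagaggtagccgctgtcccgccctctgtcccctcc
*Hsd17b7*, GRCm38.p6 chr1:169969156-169969455, - strand: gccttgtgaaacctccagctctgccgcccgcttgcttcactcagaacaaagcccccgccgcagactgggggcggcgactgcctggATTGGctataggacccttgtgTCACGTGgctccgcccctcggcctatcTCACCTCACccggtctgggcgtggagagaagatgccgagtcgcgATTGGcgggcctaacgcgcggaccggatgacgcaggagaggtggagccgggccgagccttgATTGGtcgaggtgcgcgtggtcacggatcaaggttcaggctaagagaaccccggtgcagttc
*Ebp*, GRCm38.p6 chrX:8193463-8193762, - strand: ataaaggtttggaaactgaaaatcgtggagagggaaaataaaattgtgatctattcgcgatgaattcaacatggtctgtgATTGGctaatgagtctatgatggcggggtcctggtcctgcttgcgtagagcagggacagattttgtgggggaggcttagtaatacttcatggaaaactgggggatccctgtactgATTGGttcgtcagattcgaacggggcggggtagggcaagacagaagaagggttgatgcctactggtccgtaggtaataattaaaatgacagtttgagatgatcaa
*Fasn*, GRCm38.p6 chr11:120824498-120824797, - strand: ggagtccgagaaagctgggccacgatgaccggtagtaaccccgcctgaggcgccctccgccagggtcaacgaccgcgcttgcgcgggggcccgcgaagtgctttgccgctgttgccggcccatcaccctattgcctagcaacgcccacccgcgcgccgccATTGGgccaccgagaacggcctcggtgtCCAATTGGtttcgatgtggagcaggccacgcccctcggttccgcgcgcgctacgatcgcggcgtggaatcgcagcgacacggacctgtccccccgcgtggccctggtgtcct
The sterol regulatory element written as TCACNCCAC was found in 1 member, *Hmgcs1*, from -137 to -129 relative to the start site, against 1.44% of 27025 genes with a window. The looser TCACNNCAC, which includes it, was in 4 of 24 members (*Hmgcs1*, *Sc4mol*, *Hsd17b7* and *Dhcr7*) against 4.37% of genes and 4.42% of the 7694 matched genes averaging 1 FPKM or more. TCACGTG was in 3 of 24 (12.5%; *Hsd17b7*, *Sc5d* and *Insig1*) against 4.29% of genes and 7.66% of those expressed genes. *Hsd17b7* alone held both, at -144 and -117. CCAAT was in 20 of 24 members (83.3%) against 41.1% of genes and 44.2% of expressed genes. GGGCGG, the core of an Sp1 site, was also in 20 of 24, but 71.5% of those expressed genes held it. Per window, the shares over 32851 promoters were 1.24% for TCACNCCAC, 3.77% for TCACNNCAC, 3.77% for TCACGTG, 37.4% for CCAAT and 35.7% for GGGCGG. Such matches describe letters, not binding.

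In *Dnttip1* KO cells, *Hsd17b7* and *Stard4* were the members called. A member was called where its fold change reached 1.5 and its unadjusted p was under 0.01. By this rule 2 of 30 members were lower than in WT and 0 were higher, while 14 had an unadjusted p under 0.05. The share of all genes at that level was not counted. Member counts at an unadjusted p under 0.05, here and below, thus have no background to be set against. Over all 17434 genes tested, 3.25% were called lower and 3.26% higher. At an adjusted p under 0.05 (limma, Benjamini-Hochberg over all genes), 4 members fell (*Sqle*, *Nsdhl*, *Hsd17b7* and *Stard4*), against 4.28% of all genes, and 1 rose (*Sc4mol*), against 5.19%. The median member was -0.12 on the log2 scale, against 0.02 for all genes tested and 0.01 for those averaging 1 FPKM or more. Of the 30 log2 fold changes, 21 were below 0, against 8094 of the 17434 genes tested.

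In *Elmsan1* KO cells, no member met the call rule in either direction in limma, against 3.68% of 17212 genes lower and 2.74% higher, although 13 members had an unadjusted p under 0.05. At an adjusted p under 0.05, 5 members fell (*Hmgcs1*, *Sqle*, *Nsdhl*, *Hsd17b7* and *Stard4*), against 4.91% of all genes, and 4 rose (*Mvd*, *Fdft1*, *Sc4mol* and *Ebp*), against 5.62%. The median member was -0.02, with 15 of 30 log2 fold changes below 0, against 8527 of the 17212 genes tested. Voom, run on the fragments recovered for 29 members, likewise called none.

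**Figure D2:**
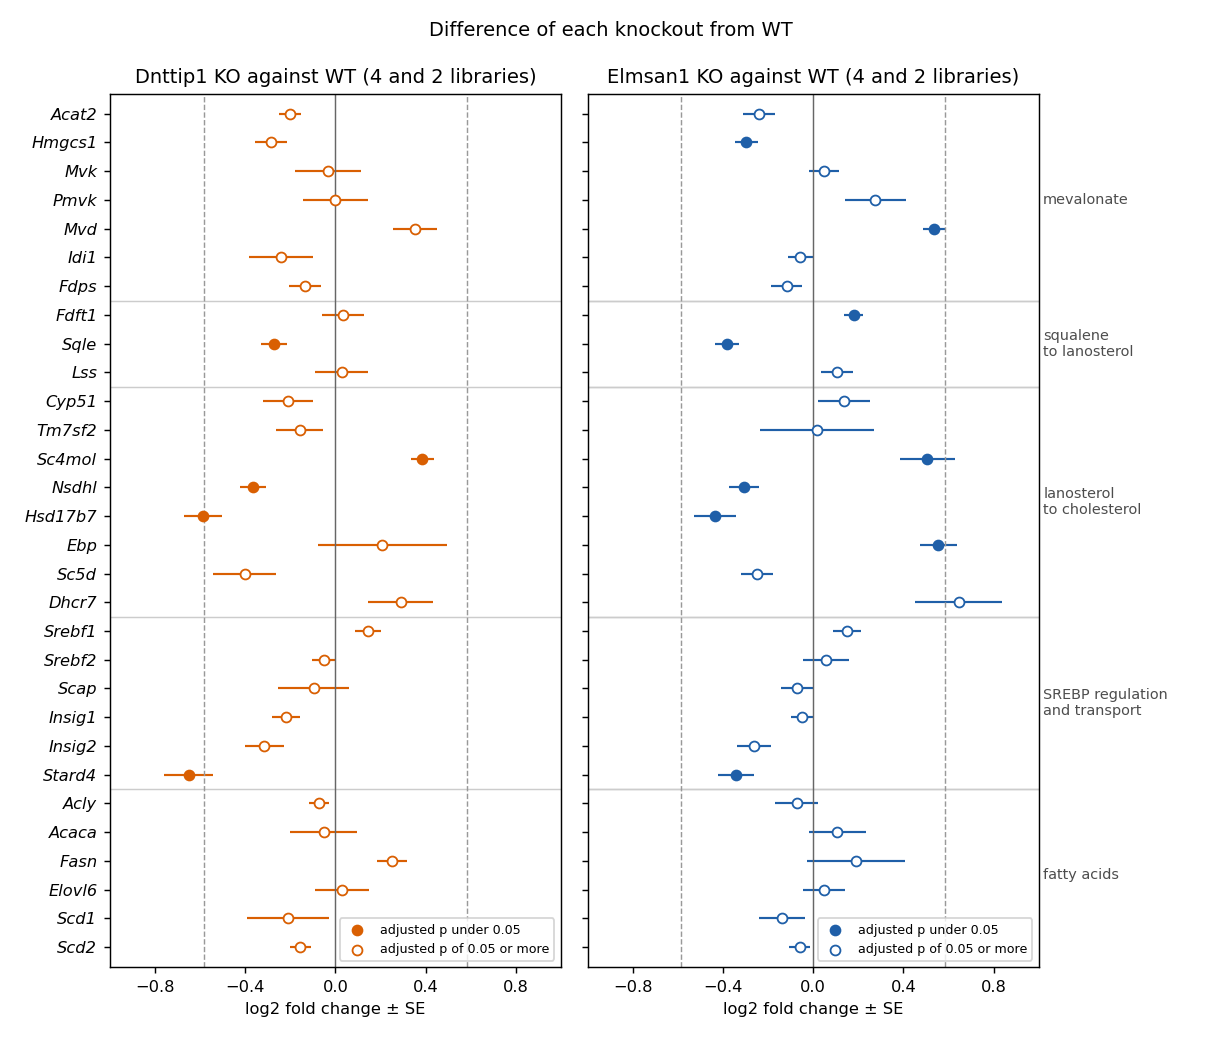
Log2 fold change of each member, with its standard error (SE), in *Dnttip1* KO and *Elmsan1* KO against WT (4 KO libraries from 2 clones and 2 WT libraries). Filled points had an adjusted p under 0.05 and dashed lines mark a fold change of 1.5. *Hsd17b7* (-0.59) and *Stard4* (-0.65) lie past the lower line in *Dnttip1* KO, whereas *Dhcr7* (0.65) lies past the upper line in *Elmsan1* KO with an adjusted p of 0.0863.

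These p-values rest on 2 clones a knockout and on 2 WT libraries. With the libraries of a clone treated as correlated, 0 members had an adjusted p under 0.05 in limma in either knockout, and 8 and 7 had an unadjusted p under 0.05 in *Dnttip1* KO and *Elmsan1* KO. Over all genes, 57 of 17434 and 64 of 17212 passed in that fit. Leaving out either WT library leaves 1 WT library, and such fits passed few genes of any kind at an adjusted p under 0.05. That no member passed there does not set the members apart from other genes.

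In the mevalonate pathway, *Hmgcs1* fell in *Elmsan1* KO, the only 1 of 4 tests of the first 2 enzymes that passed an adjusted p of 0.05. *Hmgcs1*, which condenses acetyl-CoA and acetoacetyl-CoA to HMG-CoA, was 112 ± 5.23 FPKM (SD, n = 2) in WT, 92.0 ± 5.72 (n = 4) in *Dnttip1* KO and 91.3 ± 2.12 (n = 4) in *Elmsan1* KO. Its log2 fold changes were -0.29 and -0.30, with adjusted p of 0.0571 and 0.0186, and the direct comparison of the knockouts gave 0.01 with an adjusted p of 0.942. *Acat2*, the cytosolic thiolase that makes acetoacetyl-CoA, was 48.2 FPKM in WT and 41.9 and 40.8 in the knockouts (adjusted p = 0.0579 and 0.0875). Every KO library was below both WT libraries for these 2 enzymes. *Acat3*, a close copy beside *Acat2* that may share reads with it, was 4.91 to 5.32 FPKM in WT and 3.80 to 4.46 in KO libraries.

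*Mvd*, the decarboxylase that makes isopentenyl diphosphate, went the other way. It was 23.5 ± 0.926 FPKM in WT, 30.1 ± 3.05 in *Dnttip1* KO (log2 0.35, adjusted p = 0.0758) and 34.0 ± 0.757 in *Elmsan1* KO (log2 0.54, adjusted p = 0.00371), and all 8 KO libraries were above WT. *Mvd* lies on chromosome 8, from 124957496 to 124967322 on NCBIM37, the build the authors aligned to. With the median of each chromosome set to that of WT, its log2 fold change in *Elmsan1* KO was 0.18 and the adjusted p 0.0795. The kinases *Mvk* and *Pmvk*, the isomerase *Idi1* and the synthase *Fdps* had adjusted p of 0.239 or more in both knockouts, with log2 fold changes from -0.24 (*Idi1* in *Dnttip1* KO) to 0.28 (*Pmvk* in *Elmsan1* KO).

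On the way from farnesyl diphosphate to lanosterol, *Sqle*, the squalene monooxygenase, was the member that fell in both knockouts. It was 24.7 ± 0.998 FPKM in WT, 20.4 ± 0.820 in *Dnttip1* KO (log2 -0.27, SE 0.0576, adjusted p = 0.0392) and 18.9 ± 0.461 in *Elmsan1* KO (log2 -0.38, SE 0.0523, adjusted p = 0.0105). The highest KO library, 21.4 FPKM, was below the lower WT library, 23.9. *Fdft1*, the squalene synthase, was 59.7 FPKM in WT, 61.2 in *Dnttip1* KO (adjusted p = 0.854) and 67.6 in *Elmsan1* KO, where its rise of 0.18 only just passed (adjusted p = 0.0499). *Lss*, the cyclase that makes lanosterol, was 7.17, 7.35 and 7.72 FPKM, with adjusted p of 0.902 and 0.395.

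The 8 enzymes from lanosterol to cholesterol showed the widest differences, in both directions. *Hsd17b7*, the 3-ketosteroid reductase that works with NSDHL and SC4MOL in removing the methyl groups at carbon 4, was 4.09 and 3.83 FPKM in WT. It was 2.56 and 2.47 in clone D2A7 and 2.74 and 2.65 in D1E6, and 2.96 and 3.11 in E2E8 and 2.74 and 2.83 in E2G7. All KO libraries were thus below WT, and those of E2G7 began just above the highest library of *Dnttip1* KO. *Hsd17b7* fell by 0.59 on the log2 scale in *Dnttip1* KO (SE 0.0860, adjusted p = 0.0157) and by 0.43 in *Elmsan1* KO (SE 0.0932, adjusted p = 0.0359). Over the alternatives its adjusted p ran from 6.65e-05 to 0.165 and from 0.000279 to 0.356. The call in *Dnttip1* KO lies at the edge of the 1.5-fold rule, which 7 of 21 alternatives did not meet, among them the FPKM as deposited (log2 -0.56) and clone D1E6 alone (-0.54). It also ended without WT replicate 1 (-0.54) and without either library of D2A7 (-0.58 and -0.56).

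*Nsdhl*, the partner dehydrogenase, fell in both knockouts as well, from 10.5 ± 0.453 FPKM in WT to 8.15 ± 0.176 in *Dnttip1* KO (log2 -0.37, adjusted p = 0.0187) and 8.48 ± 0.338 in *Elmsan1* KO (log2 -0.31, adjusted p = 0.0360). *Sc4mol*, the methylsterol monooxygenase of the same demethylation, rose, from 24.0 ± 1.02 FPKM to 31.4 ± 0.838 (log2 0.39, adjusted p = 0.0115) and 34.3 ± 4.49 (log2 0.51, adjusted p = 0.0497). *Sc4mol* is on chromosome 8, from 67196936 to 67212589. With chromosome medians set to that of WT its log2 fold changes were 0.01 (adjusted p = 0.890) and 0.15 (adjusted p = 0.483). *Hsd17b7* and *Nsdhl* stayed below 0 under every alternative. The signs of the 3 enzymes thus stayed opposite, but with this setting the rise of *Sc4mol* was small and did not pass.

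*Ebp*, the sterol isomerase, split the *Dnttip1* KO clones. It was 12.8 and 10.8 FPKM in WT, 9.66 and 11.2 in D2A7 and 17.8 and 18.0 in D1E6. The *Elmsan1* KO clones were at the level of D1E6, with 17.5 and 17.5 FPKM in E2E8 and 18.1 and 16.5 in E2G7. *Ebp* rose in *Elmsan1* KO (log2 0.55, SE 0.0814, adjusted p = 0.0127), whereas in *Dnttip1* KO the clones, one overlapping WT and one above it, gave 0.21 with an SE of 0.285 (adjusted p = 0.678). *Dhcr7*, which makes cholesterol from 7-dehydrocholesterol, had clone means of 12.0 FPKM in D2A7, 15.7 in D1E6, 21.2 in E2E8 and 14.5 in E2G7, against 11.2 in WT. Its fitted change in *Elmsan1* KO, 0.65, was the widest of all members, yet its SE of 0.193 left the adjusted p at 0.0863.

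*Sc5d*, the desaturase upstream of *Dhcr7*, was 17.5 FPKM in WT and 13.3 and 14.7 in the knockouts, with all KO libraries below WT (adjusted p = 0.130 and 0.0739). *Cyp51*, the demethylase that acts first on lanosterol, was 32.1 FPKM in WT, 27.9 in *Dnttip1* KO and 35.5 in *Elmsan1* KO (adjusted p = 0.286 and 0.479). *Tm7sf2*, a sterol reductase of the next step, was 7.22 and 6.53 FPKM in WT, 6.33 and 6.88 in D2A7, 5.91 and 5.52 in D1E6, 8.62 and 9.18 in E2E8 and 5.15 and 5.71 in E2G7. It was highest in one *Elmsan1* KO clone and lowest in the other, with WT between them, and had adjusted p of 0.379 and 0.976 in the knockouts.

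**Figure D3:**
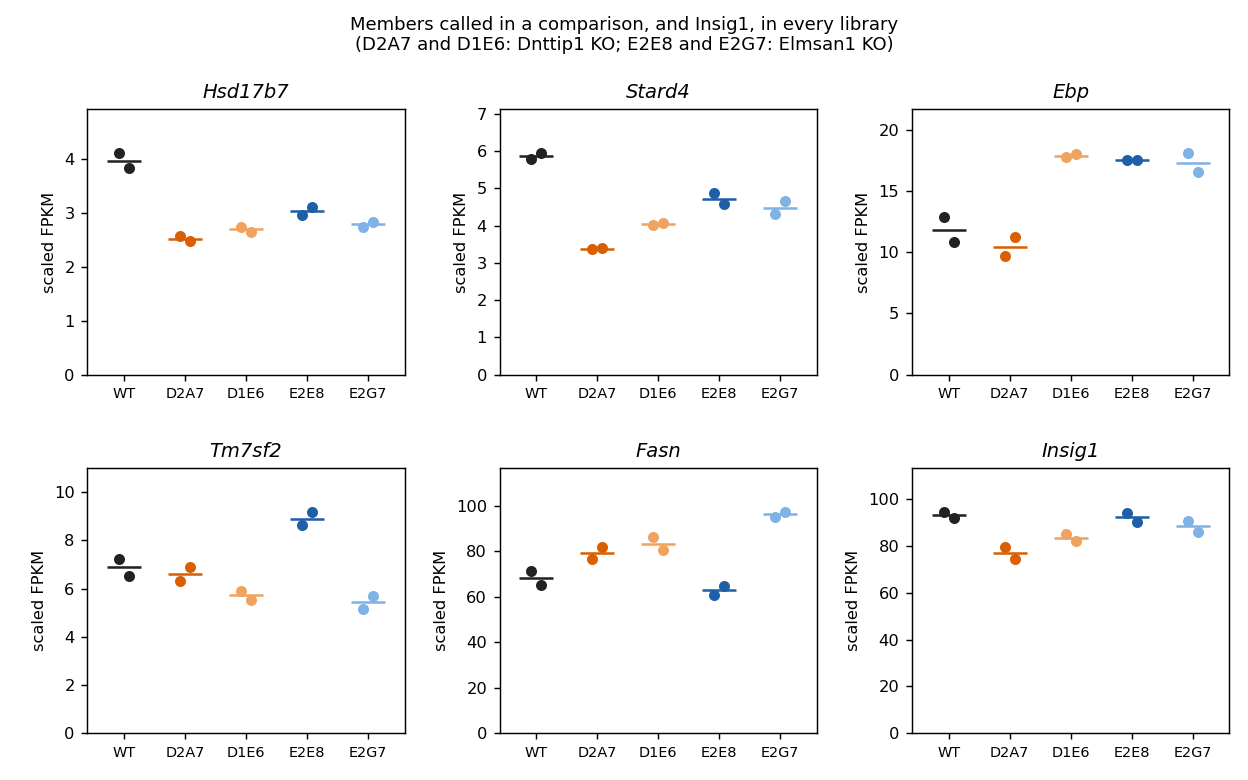
Scaled FPKM in every library (points) with the mean of each line (bar), on axes from 0, for the 5 members called in a comparison and for *Insig1*. All KO points of *Hsd17b7* (2.47 to 3.11) and *Stard4* (3.37 to 4.89) lie below both WT points, *Ebp* separates D2A7 from the other 3 clones, and *Tm7sf2* and *Fasn* separate E2E8 from E2G7 in opposite directions.

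Among the regulators, *Stard4*, a sterol carrier that moves cholesterol between membranes, had the strongest decrease. It was 5.79 and 5.94 FPKM in WT, 3.37 and 3.39 in D2A7, 4.01 and 4.07 in D1E6, 4.89 and 4.58 in E2E8, and 4.32 and 4.65 in E2G7. No KO library reached WT, and all *Dnttip1* KO libraries were below all *Elmsan1* KO libraries. *Stard4* fell by 0.65 in *Dnttip1* KO (SE 0.109, adjusted p = 0.0217, from 2.60e-05 to 0.161 over the alternatives) and by 0.34 in *Elmsan1* KO (SE 0.0788, adjusted p = 0.0437, from 0.000584 to 0.433). Compared directly, the knockouts differed by -0.31 with an unadjusted p of 0.00903 and an adjusted p of 0.296. The call in *Dnttip1* KO ended with a pseudocount of 1, in clone D1E6 alone (log2 -0.53) and without WT replicate 2, where the fold change of -0.63 still reached the threshold.

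Of *Srebf1*, *Srebf2*, *Scap*, *Insig1* and *Insig2*, none passed an adjusted p of 0.05 in either knockout (limma), while *Srebf1*, *Insig1* and *Insig2* had an unadjusted p under 0.05 in *Dnttip1* KO, as did *Insig2* in *Elmsan1* KO. *Srebf2*, whose product drives sterol synthesis, was 30.7 and 29.1 FPKM in WT, 27.6 and 28.9 in D2A7, 29.9 and 29.1 in D1E6, 33.5 and 34.7 in E2E8 and 27.9 and 28.7 in E2G7. *Srebf1*, whose product is tied more to fatty acid synthesis, was 28.5 and 26.1 in WT, 29.1 and 30.8 in D2A7, 31.1 and 29.9 in D1E6, 28.8 and 31.3 in E2E8 and 29.9 and 31.4 in E2G7. All KO libraries were above WT for *Srebf1*, by 0.14 and 0.15 on the log2 scale (adjusted p = 0.167 and 0.183), and for *Srebf2* E2E8 stood above WT while D2A7 and E2G7 stood below it (adjusted p = 0.570 and 0.765 for the knockouts). *Scap* was 6.53 and 6.31 FPKM in WT, 4.93 and 5.52 in D2A7, 7.10 and 6.71 in D1E6, 5.81 and 6.01 in E2E8 and 6.39 and 6.21 in E2G7. The *Dnttip1* KO clones lay on either side of WT (adjusted p = 0.731 and 0.542 for the knockouts).

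*Insig1*, itself a target of SREBPs, was 94.6 and 92.2 FPKM in WT, 79.4 and 74.5 in D2A7, 85.1 and 82.2 in D1E6, 94.3 and 90.3 in E2E8 and 90.7 and 86.2 in E2G7. The *Dnttip1* KO libraries were all below WT (log2 -0.22, SE 0.0632, adjusted p = 0.0852), and the *Elmsan1* KO libraries reached into its range (log2 -0.05, adjusted p = 0.581). *Insig2* was 4.29 and 4.49 FPKM in WT, 3.57 and 3.25 in D2A7, 3.76 and 3.47 in D1E6, 3.76 and 3.62 in E2E8 and 3.56 and 3.63 in E2G7. All KO libraries were below WT for this gene, by 0.32 and 0.26 on the log2 scale for the knockouts, with adjusted p of 0.0758 and 0.0824.

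No fatty acid gene passed the adjusted p threshold in either knockout. *Fasn* was 71.3 and 65.3 FPKM in WT, 76.6 and 82.0 in D2A7, 86.3 and 80.5 in D1E6, 61.0 and 65.0 in E2E8 and 95.2 and 97.4 in E2G7. All libraries of 3 KO clones were above WT, whereas those of E2E8 were below it, and the fold changes were 0.25 (adjusted p = 0.0655) and 0.19 (adjusted p = 0.609). *Acly* was 123, 117 and 117 FPKM in WT, *Dnttip1* KO and *Elmsan1* KO, and *Acaca*, the carboxylase that makes malonyl-CoA, 9.64, 9.39 and 10.5. *Scd1*, a desaturase like *Scd2*, was 66.4 ± 0.241 FPKM in WT, and its clone means were 68.6 in D2A7, 48.2 in D1E6, 66.2 in E2E8 and 54.9 in E2G7. *Scd2* was below WT in all KO libraries, at 190.3 to 198 FPKM in *Dnttip1* KO (log2 -0.16, adjusted p = 0.0918) and 202 to 209.8 in *Elmsan1* KO (log2 -0.06, adjusted p = 0.446). *Elovl6*, the elongase of palmitate, was 34.3 FPKM in WT and 35.3 and 35.6 in the knockouts (adjusted p = 0.898 and 0.782).

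Compared with each other, *Dnttip1* KO and *Elmsan1* KO cells differed in no member by the call rule (limma), against 1.52% of 17588 genes, nor at an adjusted p under 0.05, against 0.0341%. An unadjusted p under 0.05 was reached by 4 members, *Mvd*, *Cyp51*, *Insig1* and *Stard4*, all lower in *Dnttip1* KO, and voom gave 0 calls and also 4 members at that level. All 8 genes from lanosterol to cholesterol and all 6 regulators had fold changes below 0, meaning lower in *Dnttip1* KO, with medians of -0.16 and -0.08 against 0.01 over all genes. So did 8464 of the 17588 genes tested, and *Srebf1* and *Scap* were above 0 under some alternatives. Treating all 10 libraries in a single fit of 5 groups, where the spread is only that between libraries of a line, 19 members passed at an adjusted p under 0.05, as did 42.4% of all genes.

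Clones of a knockout differed from each other as well. The median size of a member's log2 difference was 0.21 between the *Dnttip1* KO clones and 0.21 between *Dnttip1* KO and WT, and it was 0.12 between the *Elmsan1* KO clones and 0.16 between *Elmsan1* KO and WT. Of the *Dnttip1* KO clones, D2A7 had 12 members lower than D1E6 at an adjusted p under 0.05, against 17.4% of 16991 genes. They were *Mvk*, *Pmvk*, *Idi1*, *Fdft1*, *Lss*, *Cyp51*, *Ebp*, *Sc5d*, *Dhcr7*, *Scap*, *Stard4* and *Acaca*, with log2 differences from -0.77 to -0.23. The 4 that were higher, against 23.3% of all genes, were *Hmgcs1* and *Fdps* (both 0.15), *Elovl6* (0.33) and *Scd1* (0.51). By the call rule only *Ebp* differed, at -0.77 (SE 0.0766, adjusted p = 0.00247), against 12.9% of all genes. The median member was -0.09, against 0.04 for all genes and 0.01 for those averaging 1 FPKM or more.

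Of the *Elmsan1* KO clones, E2E8 had 9 members higher than E2G7 at an adjusted p under 0.05 (*Pmvk*, *Cyp51*, *Tm7sf2*, *Sc4mol*, *Sc5d*, *Dhcr7*, *Srebf2*, *Elovl6* and *Scd1*), against 29.3% of 16723 genes, and 6 lower (*Acat2*, *Fdps*, *Lss*, *Acly*, *Acaca* and *Fasn*), against 21.4%. All 8 genes from lanosterol to cholesterol were on the higher side, with a median of 0.22 against 0.05 for all genes, and 5 of them passed. Over all genes, 9400 of 16723 were on that side. *Hsd17b7*, *Nsdhl* and *Ebp* fell below 0 under some alternatives. The 3 enzymes that carry acetyl units into palmitate were on the lower side, *Acly* by 0.25, *Acaca* by 0.33 and *Fasn* by 0.61. By the call rule 2 members differed, against 13.7% of all genes. *Tm7sf2* was higher in E2E8 (0.70, SE 0.0665, adjusted p = 0.00184) and *Fasn* lower (-0.61, SE 0.0403, adjusted p = 0.000881). The overlapping gene of *Tm7sf2* is 1110014N23Rik.

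**Figure D4:**
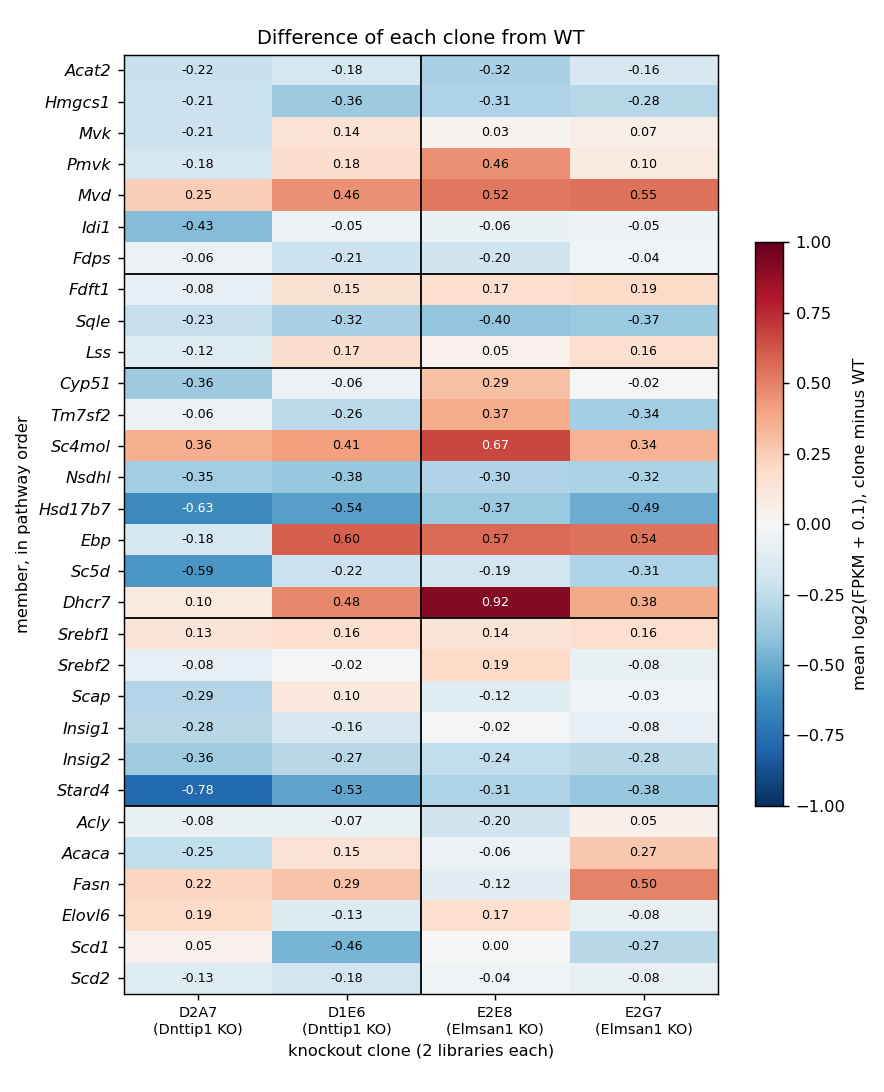
Mean log2 difference of each knockout clone from WT for the 30 members in pathway order (colour and number, 2 libraries per line). *Hsd17b7* and *Stard4* are below 0 in all 4 clones, *Ebp* is at -0.18 in D2A7 and between 0.54 and 0.60 in the others, and *Dhcr7* reaches 0.92 in E2E8.

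Set against WT one clone at a time, the call rule gave 3 members in D2A7 (*Hsd17b7*, *Sc5d* and *Stard4*, all lower), against 14.7% of genes, and 1 in D1E6 (*Ebp*, higher), against 9.63%. It gave 2 in E2E8 (*Sc4mol* and *Dhcr7*, both higher), against 15%, and 0 in E2G7 (limma), against 9.54%, where 19 members had an unadjusted p under 0.05. Members called in 1 clone could lie near the fold threshold in another. *Ebp* was 0.60 on the log2 scale in D1E6, 0.57 in E2E8 and 0.54 in E2G7, and *Hsd17b7* was -0.63 in D2A7 and -0.54 in D1E6. The median member was -0.18 in D2A7, -0.06 in D1E6, -0.03 in E2E8 and -0.04 in E2G7, so that D2A7 stood lowest. Genes averaging 1 FPKM or more had a median of 0.00 in D2A7. In all 8 KO libraries together, 9 members were below both WT libraries (*Acat2*, *Hmgcs1*, *Sqle*, *Nsdhl*, *Hsd17b7*, *Sc5d*, *Insig2*, *Stard4* and *Scd2*), against 12.8% of 16882 genes, and 3 were above (*Mvd*, *Sc4mol* and *Srebf1*), against 12.6%. Of these 9, 6 had a promoter window, and those of *Hmgcs1*, *Hsd17b7* and *Sc5d* held at least 1 of the sterol regulatory motifs shown above. So did *Insig1*, *Sc4mol* and *Dhcr7*, which were not below WT throughout. A link between these motifs and the levels was not tested, and motifs were not counted over all genes below WT.

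The wider lipid genes were counted by the same rules. For all list counts here and below, the shares of all genes called were 3.25% lower and 3.26% higher in *Dnttip1* KO. In *Elmsan1* KO they were 3.68% lower and 2.74% higher. At an adjusted p under 0.05 (limma), 4.28% fell and 5.19% rose in *Dnttip1* KO, and 4.91% fell and 5.62% rose in *Elmsan1* KO. Of 11 genes that process SREBPs or degrade sterol enzymes, 0 were called in either knockout (limma) and 5 had an unadjusted p under 0.05 in each. At an adjusted p under 0.05, 2 rose and 2 fell in *Dnttip1* KO, and 2 rose and 1 fell in *Elmsan1* KO. The same 2 genes rose in both, *Mbtps1* (the site-1 protease of SREBPs, log2 0.41 and 0.36) and *Erlin2* (0.53 and 0.43), and both, which were singled out after their values were seen, lie on chromosome 8. In the list of sterol efflux and the liver X receptors (LXRs), 7 of 8 genes were tested, with 1 called higher and 1 lower in *Dnttip1* KO and 2 higher and 1 lower in *Elmsan1* KO. *Abcg1*, a transporter that exports cholesterol, rose from 9.41 ± 1.04 FPKM in WT to 15.4 ± 0.672 in *Dnttip1* KO (log2 0.71, SE 0.0809, adjusted p = 0.00816) and 15.9 ± 1.38 in *Elmsan1* KO (log2 0.75, SE 0.103, adjusted p = 0.0106). *Nr1h3*, which encodes LXR alpha, was scarce, at 0.384 FPKM in both WT libraries and 0.138 to 0.252 in the KO libraries. It was called lower by -0.73 and -0.81, but its adjusted p of 0.0704 and 0.0670 missed the threshold. *Abcg1* met the call rule in 21 of 21 alternatives in both knockouts, whereas *Nr1h3* met it in 5 and 7 of 20. With correlated libraries of a clone, the adjusted p of *Abcg1* was 0.127 and 0.171. The further call, *Abca1* in *Elmsan1* KO, a cholesterol exporter like *Abcg1*, was 2.45 FPKM in WT, 3.80 in *Dnttip1* KO (log2 0.56, adjusted p = 0.284) and 4.50 in *Elmsan1* KO (log2 0.83, adjusted p = 0.0453), a call that ended without either WT library, with quantile normalization, with voom and with correlated libraries of a clone (adjusted p = 0.277). In *Dnttip1* KO, *Abca1* was 2.75 and 2.70 FPKM in D2A7 and 5.01 and 4.73 in D1E6. *Abca1* and the other genes given below for a call in 1 knockout were named after their values were seen.

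For sterol uptake, transport and storage, all 10 genes were tested. In *Dnttip1* KO 2 were called higher and 1 lower, against 3.26% and 3.25% of all genes. In *Elmsan1* KO 1 was called higher, against 2.74%. The gene common to both was *Lrp1*, a large endocytic receptor for lipoprotein remnants, at 1.49 and 1.39 FPKM in WT, 2.76 to 3.51 in *Dnttip1* KO (log2 1.03, SE 0.124, adjusted p = 0.00908) and 2.56 to 4.11 in *Elmsan1* KO (log2 1.10, SE 0.196, adjusted p = 0.0209). With correlated libraries of a clone, its adjusted p was 0.0972 and 0.182, and the call in *Elmsan1* KO ended without WT replicate 2. In *Dnttip1* KO, *Lipa*, the lysosomal lipase that frees cholesterol from its esters, was called lower, at 3.58 FPKM in WT and a mean of 0.768 in *Dnttip1* KO (log2 -2.22, adjusted p = 0.0379), and *Lpl*, lipoprotein lipase, on chromosome 8, was called higher, at 2.07 and 4.05 FPKM (log2 0.92, adjusted p = 0.0271). Their changes in *Elmsan1* KO were -0.60 and 0.94, with adjusted p of 0.568 and 0.163, but these means describe neither clone. *Lipa* was 4.47 and 4.38 FPKM in E2E8 and 1.25 and 1.15 in E2G7, and *Lpl* was 6.03 and 5.82 against 2.89 and 2.71. With correlated libraries of a clone, the adjusted p in *Dnttip1* KO was 0.120 for *Lipa* and 0.125 for *Lpl*. Both calls there ended without either WT library, and that of *Lpl* also with chromosome medians set to that of WT.

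Of 10 genes of the non-sterol isoprenoid branches, 0 were called in either knockout (limma), with 3 and 4 at an unadjusted p under 0.05. At an adjusted p under 0.05, 1 rose in *Dnttip1* KO, and 1 rose and 1 fell in *Elmsan1* KO. The gene that rose was *Fnta*, a subunit of protein farnesyltransferase on chromosome 8, in both (log2 0.36 and 0.40). Of the genes for fatty acid supply, elongation and desaturation, 3 of 21 tested were called lower in *Dnttip1* KO, against 3.25% of all genes. In *Elmsan1* KO 1 of 22 was called lower, against 3.68%. *Acacb*, the acetyl-CoA carboxylase of mitochondria, was common to both. It was 9.78 and 8.97 FPKM in WT, 5.43 and 5.99 in D2A7, 3.62 and 3.48 in D1E6, 5.58 and 5.82 in E2E8 and 3.51 and 3.62 in E2G7, lower in all KO libraries by 1.04 on the log2 scale in each knockout (adjusted p = 0.0522 and 0.0436). The calls of *Acacb* ended without either WT library, and in *Dnttip1* KO also without D1E6 replicate 1, and with correlated libraries the adjusted p was 0.167 in each knockout. The other calls in *Dnttip1* KO were *Mid1ip1*, whose product promotes assembly of acetyl-CoA carboxylase, and *Elovl4*. *Mid1ip1* fell from 6.98 FPKM in WT to a mean of 2.33 (log2 -1.55, adjusted p = 0.00526) and was 4.94 in *Elmsan1* KO (log2 -0.59, adjusted p = 0.363), where E2E8 held 6.82 and 6.65 FPKM and E2G7 3.11 and 3.17. It met the call rule in 21 of 21 alternatives in *Dnttip1* KO, with an adjusted p of 0.0720 with correlated libraries of a clone. *Elovl4*, an elongase of very long chains, was 1.95 FPKM in WT, 1.15 in *Dnttip1* KO and 1.75 in *Elmsan1* KO, and met the rule in 12 of 21. For *Elovl4*, E2E8 held 2.33 and 2.48 FPKM and E2G7 1.16 and 1.05. Of the fatty acid oxidation genes, 1 of 11 tested was called lower in *Dnttip1* KO (*Acadvl*, log2 -0.67, adjusted p = 0.00831) and 1 of 12 in *Elmsan1* KO (*Slc25a20*, log2 -0.59, adjusted p = 0.00730, with 14 of 21 alternatives past the rule), and 0 were called higher in either. With correlated libraries of a clone, their adjusted p was 0.128 and 0.110.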

How the data were processed

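RNA-seq libraries of mESCs were taken from 1 table of FPKM. The authors sequenced stranded total RNA, aligned it to NCBIM37, counted reads per gene with HTSeq and deposited FPKM per gene and library. Whether their counting used strand is not given in the sources used here. Positions and exon lengths came from GENCODE vM1 for 97.2% of gene identifiers (*Hmgcs1* has none). From 98.1% to 98.4% of low values were whole multiples of the FPKM of 1 fragment (within 0.02), which gave the library totals.

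Libraries were scaled by median ratios to geometric means, over the 11270 genes that reached 1 FPKM throughout. A gene entered a comparison if 2 or more of its libraries reached 0.1 FPKM, and was tested on log2(FPKM + 0.1), which understates changes of low genes, with limma 3.58.1 in R 4.3.3 (two-sided moderated test, variance trend, Benjamini-Hochberg adjustment over all genes tested). Calls used the rule of the study's methods, a fold change of at least 1.5 with p under 0.01. The libraries of a line are called biological replicates by the study. The p-values measure the spread between these libraries, and libraries of 1 clone do not replicate a knockout independently. The scripts were tested on simulated data. Figures were drawn with matplotlib 3.10.9 in Python 3.11.15.

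All members are named. Values in every library are given for members called in a knockout or between clones and for the SREBP regulators, and the rule for wider lists named genes called alike in both knockouts. Their genes called in 1 knockout, and *Mbtps1*, *Erlin2*, *Fbxw7* and *Fnta*, were named after their values were seen. The members and lists were chosen with earlier results of these data known. Alternatives were other pseudocounts (1 and 0.01), filters, scalings, variance models and call rules, a single fit of all libraries, voom on recovered fragments, correlated libraries of a clone, a replicate block and each library left out. Each clone alone was added after seeing the data. RefSeq promoter windows were searched on both strands for the letters given.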

Additional observations from a re-analysis of the deposited data

Results flagged for a closer look

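In groups of 4 libraries, a library was set apart where its gap to the next exceeded 0.829 of the group's range. Chance gives this in about 1 in 20 groups of independent libraries, which these, from 2 clones each, are not. Of 60 groups, 3 met this, all at small differences. *Fdft1* in E2E8 replicate 1 was 66.3 FPKM, against 67.8 to 68.1 in the other *Elmsan1* KO libraries. *Sc4mol* in D2A7 replicate 2 was 30.1 FPKM, against 31.6 to 31.9 in the other *Dnttip1* KO libraries. *Acly* in D1E6 replicate 1 was 118 FPKM, against 116 to 117 in the others.

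Members whose level differed between clones of the same knockout by the call rule were *Ebp* in *Dnttip1* KO (D2A7 against D1E6, log2 -0.77) and *Fasn* (-0.61) and *Tm7sf2* (0.70) in *Elmsan1* KO (E2E8 against E2G7). A mean over both clones does not describe either clone for these 3 genes. The cause was not tested.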

How the results depend on the processing

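None of the counts and named members below changed direction under any alternative run. In *Dnttip1* KO against WT, the 2 calls became 0 with a pseudocount of 1, 1 with the FPKM as deposited, 1 with chromosome medians set to that of WT and 1 in clone D1E6 alone, and 1 to 2 with a library left out (1 without either library of D2A7 or of WT). The 5 members with an adjusted p under 0.05 became 19 with all 10 libraries in a single fit, 17 in clone D2A7 alone, 20 in D1E6 alone, 1 with a replicate block, 0 with correlated libraries of a clone, and 0 to 4 with a library left out (0 without either WT library, 3 without D2A7 replicate 2 or D1E6 replicate 1). In *Elmsan1* KO against WT, the 0 calls became 1 with chromosome medians set to that of WT (*Ebp*), 1 with all 10 libraries in a single fit (*Dhcr7*), 2 in clone E2E8 alone, and 0 to 1 with a library left out (1 without WT replicate 1 or either library of E2G7). The 9 members with an adjusted p under 0.05 became 3 with chromosome medians set, 5 without a variance trend, 21 in the single fit, 5 with voom, 4 with the replicate block, 20 in E2E8 alone, 17 in E2G7 alone, 0 with correlated libraries, and 0 to 4 with a library left out (0 without either WT library, 4 without any other). Between the knockouts, 0 at an adjusted p under 0.05 became 19 in the single fit. Between the clones of *Dnttip1* KO, 16 became 10 to 15 with a library left out (10 without D1E6 replicate 1), and *Ebp* stayed called. Between those of *Elmsan1* KO, the 2 calls became 1 with quantile normalization (*Fasn* at -0.57) and 1 to 2 with a library left out (*Fasn* at -0.57 without E2E8 replicate 1). In the single fit and for clones alone, the spread is that between libraries of a line. Over all genes, 46.3% passed an adjusted p of 0.05 (limma) in the single fit for each knockout against WT. For clones alone it was 40% in D2A7, 32.7% in D1E6, 46% in E2E8 and 33.4% in E2G7. With the replicate block it was 2.56% in *Dnttip1* KO and 3.8% in *Elmsan1* KO, against 9.47% and 10.5% in the main fit. With correlated libraries it was 0.327% and 0.372%. In *Elmsan1* KO it was 6.88% with chromosome medians set, 8.98% without a variance trend and 7.96% with voom. By the call rule, 6.51% of genes passed in *Dnttip1* KO and 3.1% with a pseudocount of 1. There it was 6.72% with the FPKM as deposited and 6.01% with chromosome medians set. Where 1 library of a line was left, it was taken to vary like the rest. Without either WT library, few genes of any kind passed an adjusted p of 0.05.

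The correlation of libraries within a clone was 0.70 in the fit of *Dnttip1* KO with WT and 0.77 in that of *Elmsan1* KO. Deviations of same-numbered libraries from their line means correlated between -0.19 and 0.33 over 11281 genes in 10 pairs of lines, highest for D2A7 with E2E8. These values have no common sign, and whether some libraries were handled together was not tested. The replicate block left 1 and 4 members with an adjusted p under 0.05, as above.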
